A study of Mus musculus with 238 samples.

Results

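The 8 genes App, Mapt, Psen2, Bace1, Clu, Bin1, Apoe and Sorl1, which are tied to Alzheimer disease by their products or by inherited risk, were followed through every tissue of the series. They are 8 of the 21076 gene rows of the count table and were chosen by name, with earlier results of these data known. All 8 passed the filter on low counts in every comparison. Among the 8, Mapt is also tied to Parkinson disease. The set was therefore named by its genes. By the GENCODE annotation of GRCm38, App lies on chromosome 16 at 84949685-85173766, Mapt on 11 at 104231390-104332090, Psen2 on 1 at 180227004-180263438 and Bace1 on 9 at 45838580-45864399. Clu lies on 14 at 65968483-65981547, Apoe on 7 at 19696109-19699188, Sorl1 on 9 at 41964720-42124297 and Bin1 on 18. All 8 are protein-coding.

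Amyloid beta is cut from the membrane protein encoded by App, first by the beta-secretase encoded by Bace1 and then by gamma-secretase, a complex whose catalytic subunit can be the product of Psen2. Sorl1 encodes a sorting receptor that carries the App protein between endosomes and the Golgi, and Bin1 encodes a protein that bends membranes during endocytosis. Apoe and Clu encode secreted lipid-carrying proteins, made in the brain mainly by glia, and Mapt encodes tau, which binds microtubules in neurons.

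All mice were C57BL/6JN animals of 19 months, with no transgene named in the labels, so the mouse forms of these genes were measured. In the diet experiment, 5 female mice were dietary restricted (aDR) and 4 female mice ate ad libitum (AL). The restricted livers are labelled DR and carry the same mouse numbers as the aDR brains. They were taken to be from the same animals, which the labels do not state. In the plasma experiment, 3 male mice received young mouse plasma (YMP) by retro-orbital injection and 4 male mice received PBS the same way. Sex and experiment cannot be told apart, so all treatment comparisons were made within an experiment. The samples were 229 libraries of 15 brain regions and 9 of liver. Each treated group was set against its control group region by region, mostly with 5 mice against 4 for diet and 3 against 4 for plasma. Diet had 4 against 3 in corpus callosum, 5 against 3 in entorhinal cortex and 4 against 4 in hypothalamus. Plasma had 2 against 3 in corpus callosum and 3 against 3 in pons, hypothalamus, cerebellum, visual cortex and posterior hippocampus.

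Library totals ran from 0.606 to 32.4 M counts with a median of 8.44 M, and 6 libraries held under 2 M. Levels are given as CPM, counts per M counts of the library total, scaled by TMM factors over all libraries. In brain libraries the median count was 153 for Psen2, the lowest of the 8, and 27686 for Apoe, the highest. Liver libraries carried 5 of 5 hepatocyte markers, summing to between 124845 and 176589 CPM. The libraries labelled choroid plexus also carried much neuronal RNA. In AL mice their 8 neuron markers summed to between 6474 and 7907 CPM, against 10839 to 11199 CPM in motor cortex, while their 8 markers of choroid plexus epithelium ran from 1168 to 14102 CPM. In bulk tissue, fewer cells of a type and less RNA per cell cannot be told apart.

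One library stood apart, the pons library of aDR mouse 67. Its 10 leading genes held 23.4% of its counts, against 5.72% to 7.12% in the pons of the other 8 diet mice and at most 8.74% in any of the other 228 brain libraries. Prl, Gh and Cga, which encode hormone chains of the pituitary, held 14.1%, 3.03% and 1.53% of its counts, and at most 0.135%, 0.0386% and 0.0126% in those 8. Mapt measured 147 CPM in it and 367 to 478 CPM in those 8, and Bin1 149 CPM against 281 to 392 CPM. Diet results over brain regions are therefore also given without this library, a choice made after seeing the data.

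Liver carried the change in the set that passed the test. Psen2 stood at 213 ± 48.3 CPM (SD, n = 5) in restricted and at 531 ± 87.7 CPM (SD, n = 4) in freely fed livers. In the 4 AL livers it measured 445, 498, 530 and 652 CPM. In the 5 DR livers it measured 167, 174, 211, 226 and 288 CPM. The highest restricted liver therefore lay below the lowest freely fed liver, and the groups did not overlap for 4.04% of all genes tested in liver. The log2 change was -1.30 (SE 0.19), and the adjusted p was 0.0245 in edgeR's quasi-likelihood test with Benjamini-Hochberg adjustment. In the same test 26 of 11815 genes, or 0.22%, had an adjusted p under 0.05, the threshold for a call throughout. Without a single mouse the change stayed between -1.43 and -1.17 and its adjusted p ran from 0.0134 to 0.0899. The call was lost without AL mouse 66, 68 or 69 (0.0747, 0.0635 and 0.0804) and without DR mouse 62, 64 or 65 (0.0645, 0.0678 and 0.0899).

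Markers of other cell types were set beside that change. The 5 blood markers, 5 of 5 detected, summed to between 177 and 388 CPM in AL livers and between 110 and 176 CPM in DR livers. The 6 endothelial markers, 6 of 6 detected, summed to between 280 and 394 CPM in AL and between 366 and 500 CPM in DR livers. Hepatocyte markers ranged from 125765 to 144884 CPM in AL and from 124845 to 176589 CPM in DR livers. The groups thus did not overlap for blood and overlapped for the other 2 lists, and the part of these cells in the Psen2 change was not tested. All 8 neuron markers were low in liver, at a sum of 21.2 to 47.9 CPM over both diets, with Nefl and Nefm at 0 in all livers.

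Psen2 is read from the minus strand. Since the diet change of the set was in this gene, its transcript starts are shown. RefSeq (GRCm38.p6) gives 2 windows of 300 bases around Psen2 starts, each from 250 bases before to 50 bases after the start. The upstream window is chr1:180256251-180256550, at the start of transcript Psen2-205, and the downstream window is chr1:180245901-180246200, at the start of transcript Psen2-201. Capitals mark the GC box GGGCGG, a motif bound by Sp factors, on either strand in the first, and the E-box CACGTG, a motif bound by clock and Myc family factors, in the second.
Psen2 upstream window: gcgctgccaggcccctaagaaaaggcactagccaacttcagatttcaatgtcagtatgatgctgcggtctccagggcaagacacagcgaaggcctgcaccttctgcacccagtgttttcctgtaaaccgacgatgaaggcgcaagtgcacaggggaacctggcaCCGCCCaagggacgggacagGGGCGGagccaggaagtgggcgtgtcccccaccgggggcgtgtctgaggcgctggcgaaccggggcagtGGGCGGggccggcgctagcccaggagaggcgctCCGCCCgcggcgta
Psen2 downstream window: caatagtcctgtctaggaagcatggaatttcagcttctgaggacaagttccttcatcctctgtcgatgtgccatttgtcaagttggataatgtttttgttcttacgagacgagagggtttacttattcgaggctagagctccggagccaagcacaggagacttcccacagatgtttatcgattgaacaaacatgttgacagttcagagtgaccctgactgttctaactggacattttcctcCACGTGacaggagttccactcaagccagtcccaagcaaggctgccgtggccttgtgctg
The upstream window held 4 GC boxes and 0 E-boxes, and the downstream window 1 E-box, 9 bases before the start, and 0 GC boxes. Of 32851 such mouse windows, 35.7% held a GC box and 7.15% an E-box. The D-box TTATGTAA, also searched on both strands, was in neither and in 0.938% of all windows. A match is a string of letters and shows no binding, and counts per gene do not tell which start was used. Of the 8 genes, 4 had such windows. The window at the start of transcript Sorl1-201 also held 1 E-box and 1 GC box, and that of App held 1 GC box. The other Sorl1 window and the Apoe windows held neither motif.

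The other 7 genes did not pass the test in liver, as the plot of liver levels shows. App measured 106, 108, 110 and 129 CPM in AL livers and 117, 136, 140, 146 and 153 CPM in DR livers. The groups overlapped only through the highest AL liver and the lowest DR liver, and App differed by 0.31 on the log2 scale (SE 0.12, edgeR adjusted p 0.438). Sorl1 averaged 14.9 ± 5.31 CPM (SD, n = 5) in DR and 19.4 ± 7.15 CPM (SD, n = 4) in AL livers, a log2 change of -0.39 (SE 0.30). Apoe, one of the most abundant liver messages, averaged 48797 ± 4814 CPM (SD, n = 5) in DR and 46744 ± 1087 CPM (SD, n = 4) in AL livers. Clu averaged 2393 ± 837 CPM (SD, n = 5) against 2202 ± 564 CPM (SD, n = 4). Bace1 averaged 87.6 ± 20.4 against 83.3 ± 14.9 CPM, Bin1 22.2 ± 5.31 against 23.7 ± 2.47 CPM and Mapt 10.05 ± 4.83 against 8.90 ± 2.37 CPM, all with SD over the same 5 and 4 livers. The ranges of these 6 genes overlapped between the diets.

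**Figure D1:**
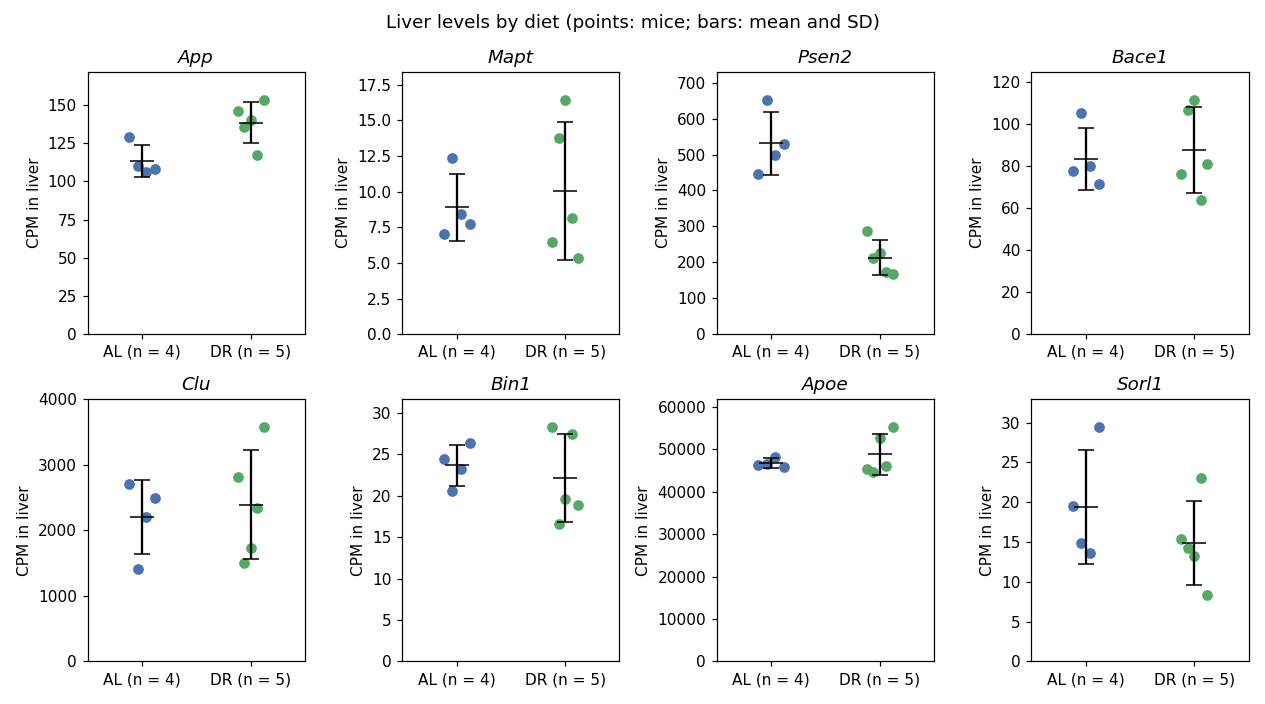
Levels of the 8 genes in liver (CPM, vertical axes from 0) in AL mice (blue, n = 4) and DR mice (green, n = 5); points are mice, bars the mean and SD. For Psen2 the DR livers lie between 167 and 288 CPM and the AL livers between 445 and 652 CPM, while the groups of the other 7 genes overlap.

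The liver change of Psen2 was then set against that in the brain of the same mice. Over the 15 brain regions Psen2 differed by a log2 change of 0.0035 (SE 0.028) between the diets. Its regional estimates were above 0 in 10 regions and below 0 in 5. They ran from -0.31 in olfactory bulb (SE 0.10, edgeR adjusted p 0.240) to 0.17 in anterior hippocampus (SE 0.15), and none was called. When the brain value of a mouse was subtracted from its liver value, the diets differed by -1.31 (SE 0.19, limma adjusted p 0.0358). That test called 10 of 11350 genes, or 0.0881%. The size stayed between -1.43 and -1.21 in all 11 alternatives. The call remained with a prior count of 0.5 (adjusted p 0.0429), without the pons library of aDR mouse 67 (0.0359) and without aDR mouse 61 (0.0225), and was lost without any of the other 8 mice, at adjusted p between 0.0707 and 0.150.

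Psen2 was also the member with the highest level in liver relative to brain. In AL mice it stood 30.6-fold above the mean of the brain regions (log2 4.94, SE 0.053), and Apoe stood 15.0-fold above (log2 3.91, SE 0.068). Clu, with a log2 difference of 1.02 (SE 0.081), was 2.03-fold higher. The other 5 were lower in liver. Mapt was 45.3-fold lower (log2 -5.50, SE 0.10), App 12.9-fold (-3.69, SE 0.083), Bin1 9.85-fold (-3.30, SE 0.099), Sorl1 8.04-fold (-3.01, SE 0.14) and Bace1 1.68-fold (-0.75, SE 0.063). All 8 passed the test, as did 86.2% of 15876 genes, so a call here was common. The fit had no term for the mouse, so these SE take the libraries of 1 mouse as independent. The scaling mattered. With TMM factors the median log2 difference of all genes was -0.28, and 44.9% of the called genes were higher in liver. With plain library totals the median was -1.22 and the share 25.8%. Clu then differed by 0.067 and was not called (adjusted p 0.499), while the other 7 kept their direction and their call. Relative to the median of all genes, Clu was higher by 1.30 with TMM and by 1.28 with plain totals, and Psen2 by 5.22 under both.

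Brain regions were compared next in the control mice, to give the ground level of each gene. All 8 genes differed between regions in AL and in PBS mice, as did 98.1% of 15324 genes and 96.1% of 15415 genes by the same edgeR F test. Pairs of regions were then tested by edgeR in the same fits, with adjustment over all genes for each pair. Over the 105 pairs, 47.5% of gene tests were called in AL and 41.5% in PBS mice.

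**Figure D2:**
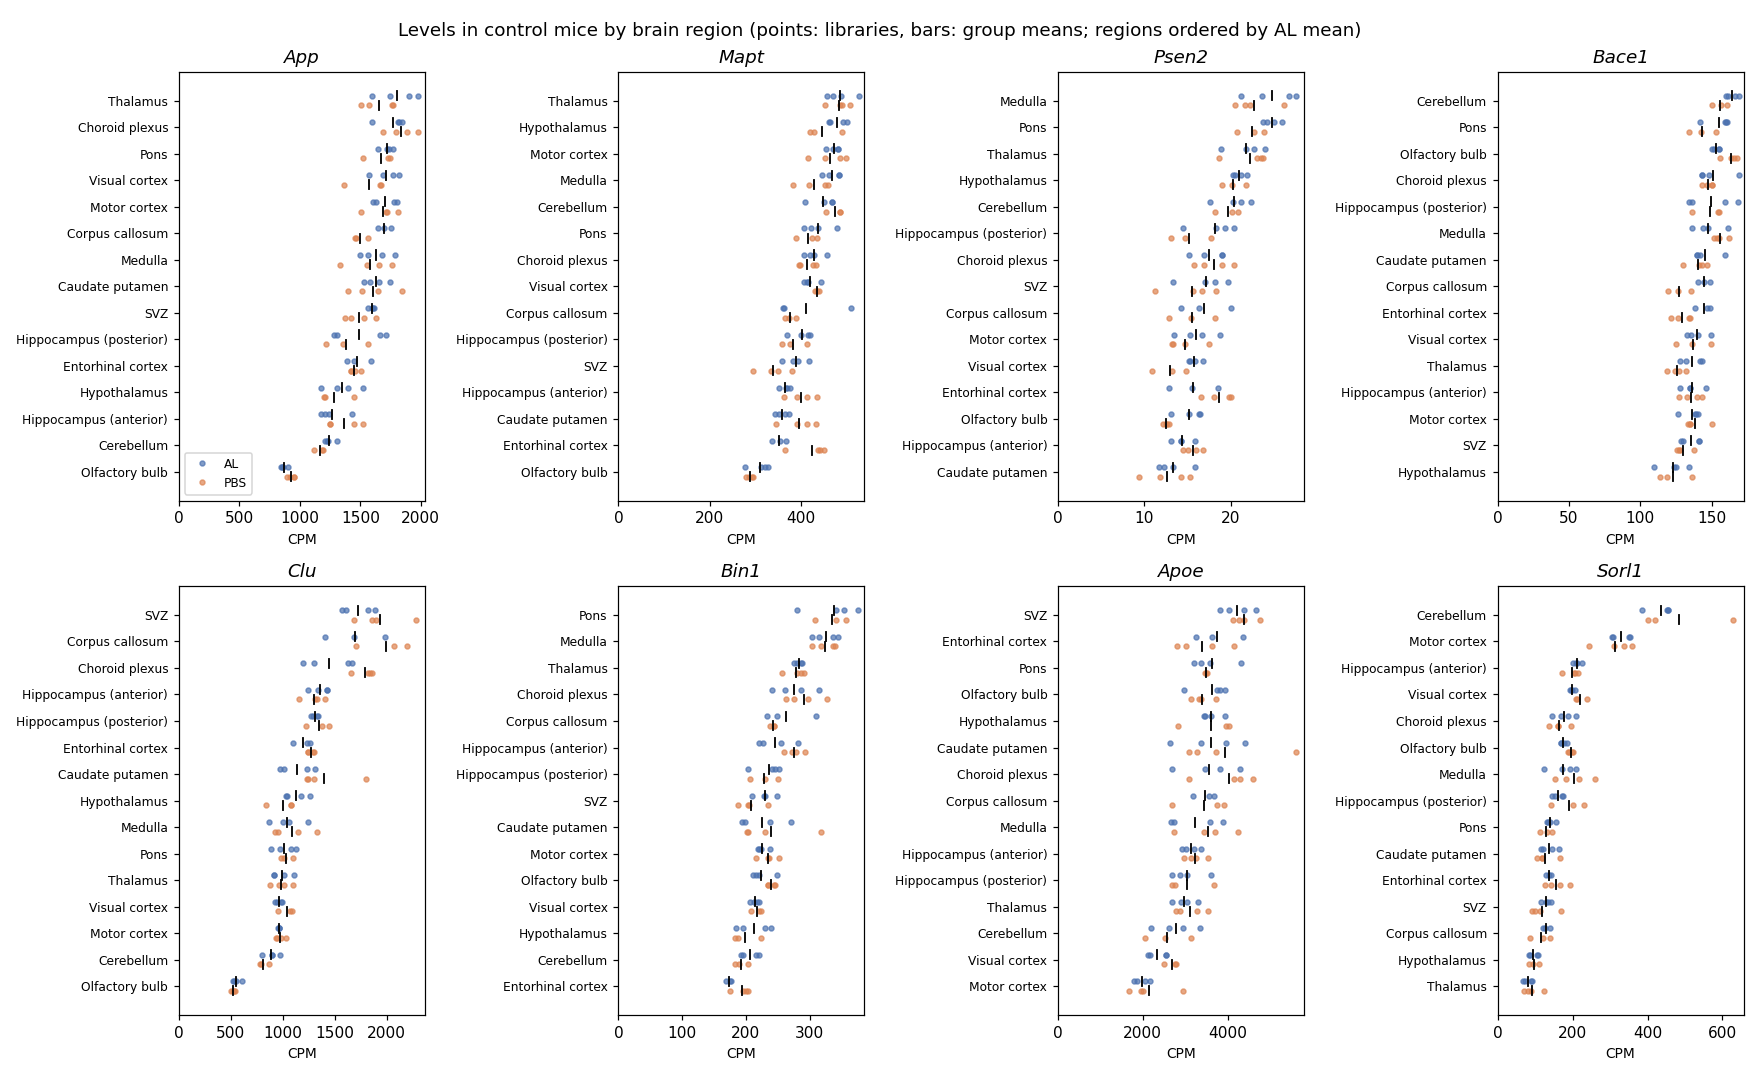
Levels of the 8 genes (CPM, horizontal axes from 0) in 15 brain regions of AL (blue) and PBS (orange) control mice; points are libraries, black bars group means, and regions are ordered by the AL mean of each gene. Sorl1 runs from 80.9 CPM in thalamus to 437 CPM in cerebellum in AL mice, and Bace1 only from 123 to 164 CPM.

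Sorl1, the sorting receptor, had the widest spread of the 8. In AL mice it averaged 437 ± 35.2 CPM (SD, n = 4) in cerebellum, 329 ± 26.4 CPM in motor cortex and 212 ± 10.7 CPM in anterior hippocampus. At the lower end it averaged 95.8 ± 12.6 CPM in hypothalamus and 80.9 ± 11.6 CPM in thalamus (SD, n = 4 each). Cerebellum was 5.40-fold above thalamus in AL and 5.34-fold in PBS mice. Cerebellum exceeded motor cortex in both cohorts (log2 0.37, SE 0.11, adjusted p 0.0031 in AL; 0.60, SE 0.20, adjusted p 0.0088 in PBS, edgeR). In AL mice motor cortex also exceeded anterior hippocampus, and corpus callosum exceeded hypothalamus. The other 11 neighbours in the AL order were not called apart. Of 105 pairs, 78 were called in AL and 61 in PBS mice. In the 4 AL cerebella Sorl1 measured 384, 453, 455 and 455 CPM, and in the 3 PBS cerebella 402, 419 and 628 CPM. The PBS value of 628 CPM was that of mouse 84, which was also the highest of its group over all regions.

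Clu and Apoe, the lipid carriers, were both high in SVZ and differed elsewhere. Clu averaged 1720 ± 160 CPM (SD, n = 4) in SVZ and 1692 ± 292 CPM (SD, n = 3) in corpus callosum of AL mice, and 553 ± 40.1 CPM (SD, n = 4) in olfactory bulb. The order of SVZ and corpus callosum was not resolved in either cohort, and the olfactory bulb lay below its neighbour, cerebellum, in both (log2 0.69, SE 0.11, adjusted p 3.07e-07 in AL; 0.63, SE 0.11, adjusted p 1.18e-05 in PBS, edgeR). For Clu, 65 of 105 pairs were called in AL and 78 in PBS mice. Apoe averaged 4228 ± 376 CPM (SD, n = 4) in SVZ and 1976 ± 179 CPM in motor cortex of AL mice, a 2.14-fold span, and 2.04-fold in PBS mice. No 2 neighbours of the Apoe order were called apart in either cohort, and 37 pairs in AL and 26 in PBS mice were. The olfactory bulb, lowest for Clu, held for Apoe the high level of 3622 ± 435 CPM (SD, n = 4). The median coefficient of variation between libraries of 1 region was high for Apoe in PBS mice, at 17.7%, where that of Sorl1 was 19.1% and that of Bace1 5.16%.

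App and Mapt, the precursor protein and tau, shared their lowest region. App averaged 866 ± 27.6 CPM in olfactory bulb and 1242 ± 42.4 CPM in cerebellum (SD, n = 4 each, AL), a step that passed the test (log2 0.53, SE 0.078, adjusted p 1.33e-07, edgeR). The 6 highest regions lay between 1699 CPM in corpus callosum and 1805 ± 168 CPM (SD, n = 4) in thalamus, and none of these neighbours differed beyond their spread. In PBS mice the libraries labelled choroid plexus had the highest App mean, 1835 ± 125 CPM (SD, n = 4). Mapt averaged 309 ± 21.8 CPM in olfactory bulb and 485 ± 29.8 CPM in thalamus (SD, n = 4 each, AL), a 1.57-fold span. Olfactory bulb was again the lone step called, below entorhinal cortex in AL (adjusted p 0.0059) and below SVZ in PBS mice (adjusted p 0.0034, edgeR). In the AL libraries labelled choroid plexus, which held neuron markers, Mapt reached 427 ± 22.1 CPM (SD, n = 4).

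The secretase genes behaved differently from each other. Bace1, the beta-secretase, had the narrowest range, from 123 ± 10.1 CPM in hypothalamus to 164 ± 4.20 CPM in cerebellum (SD, n = 4 each, AL), or 1.33-fold, with 22 of 105 pairs called. In PBS mice its highest mean was in olfactory bulb, at 163 ± 5.16 CPM (SD, n = 4), and 40 pairs were called. Bace1 shares its locus with Rnf214 on the opposite strand, and the libraries carry no strand, so its values are uncertain. App, Mapt, Psen2, Bin1 and Sorl1 also overlap annotated genes on the opposite strand, none of them in the count table. Reads from those genes could not be told apart by strand either. Psen2, of gamma-secretase, had its highest means in medulla and pons. It averaged 24.8 ± 2.91 CPM in medulla and 24.7 ± 0.976 CPM in pons, then 21.8 ± 2.17 CPM in thalamus, 21.0 ± 0.730 CPM in hypothalamus and 13.3 ± 1.83 CPM in caudate putamen (SD, n = 4 each, AL). The first 5 regions of the Psen2 order, with cerebellum the fifth, were the same in PBS mice, and no neighbours were called apart in either cohort.

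Bin1, the membrane-bending protein, had its highest means in pons and medulla and was low in cerebellum. It averaged 338 ± 40.6 CPM in pons and 325 ± 19.0 CPM in medulla (SD, n = 4 each), and 174 ± 4.84 CPM in entorhinal cortex (SD, n = 3) of AL mice. Pons exceeded 13 of the 14 other regions in both cohorts. Medulla was the exception, and no neighbours were called apart. Cerebellum was 14th of the 15 regions in AL mice, at 206 ± 14.4 CPM (SD, n = 4), and the lowest in PBS mice, at 192 ± 10.2 CPM (SD, n = 3). Over regions the Bin1 level ran with the mean log2 level of the oligodendrocyte markers at a Pearson r of 0.67 over 15 regions, and with neuron markers at 0.50. For App and Mapt the r with neuron markers was 0.58 and 0.55, and for Apoe it was -0.56. For Apoe several other lists gave similar values, namely 0.59 for microglia, 0.59 for ependymal cells, 0.57 for oligodendrocyte precursors and 0.54 for choroid plexus epithelium, with 0.32 for astrocytes. App was at -0.62 with blood markers. Clu was at -0.79 with blood, -0.75 with endothelial, 0.64 with microglia and 0.16 with astrocyte markers. It was also at 0.64 with choroid plexus epithelium and 0.56 with ependymal markers. Sorl1 was at -0.78 with markers of oligodendrocyte precursors, -0.56 with microglia, 0.60 with blood and 0.27 with neuron markers. These points share libraries and scaling, and are given as descriptions without a test.

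The order of the regions was similar in the 2 control cohorts. Pearson r of the log2 region means between AL and PBS mice was 0.97 for Sorl1 and Clu, 0.96 for App, 0.93 for Bin1 and Apoe, 0.87 for Psen2, 0.79 for Mapt and 0.77 for Bace1, each over 15 regions. Among the 8 genes, the region patterns of Apoe and Sorl1 ran most opposite (r = -0.66), and those of Mapt and Psen2 were closest (r = 0.63). Per kilobase of annotated exons the median region level in AL mice was 1622 CPM for Apoe, 328 for Clu, 125 for App, 55.7 for Mapt and Bin1, 22.8 for Bace1, 14.2 for Sorl1 and 3.94 for Psen2.

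Of 12005 genes at 5 CPM or more, those with the region pattern most like each member, by Pearson r of log2 CPM over 15 regions, were as follows. Sorl1 was followed by Maf (0.91), Lyl1 (0.90) and Topbp1 (0.88), and Clu by Chd1l (0.91), Dars (0.90) and Rac1 (0.88). Mapt was followed by Tollip (0.93), Uspl1 (0.90) and Kndc1 (0.90), and App by Letm1 (0.91), Omg (0.88) and Bnip3 (0.86). Psen2 was followed by Hsd17b12, Dus2 and Haus8 (each 0.91), and Bace1 by Slc6a8 (0.86), Hif1an (0.85) and Pdpr (0.84). Bin1 was followed by Ostf1, Gata3 and Stk39 (each 0.86), and Apoe by Efnb3 (0.86), D2hgdh (0.83) and Slc46a1 (0.82). Only 4 of these 24 genes recurred with Spearman's rho and 15 of 24 without choroid plexus, so the lists are not stable.

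In the brain, no member passed the edgeR test for diet or plasma in any region. Over brain and liver 248 tests were made on the 8 genes, and 20 had an unadjusted p under 0.05, among them Psen2 in liver. That is 8.06% of the member tests, beside 6.26% of all gene tests in the same comparisons. The groups did not overlap in 6 of 120 member tests in brain for diet and in 18 of 120 for plasma, beside 3.07% and 9.34% of all gene tests there. Over all genes the share called was 0.251% in motor cortex, 0.22% in olfactory bulb, 0.202% in visual cortex, 0.0524% in cerebellum, 0.0215% in corpus callosum, 0.0212% in SVZ, 0.0146% in caudate putamen, 0.00714% in medulla and 0.00707% in choroid plexus for diet. For plasma it was 0.184% in corpus callosum and 0.00738% in cerebellum. The other regions had 0 genes called by edgeR, or 0%, in either experiment. A count of 0 members in a region is therefore near what all genes gave.

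**Figure D3:**
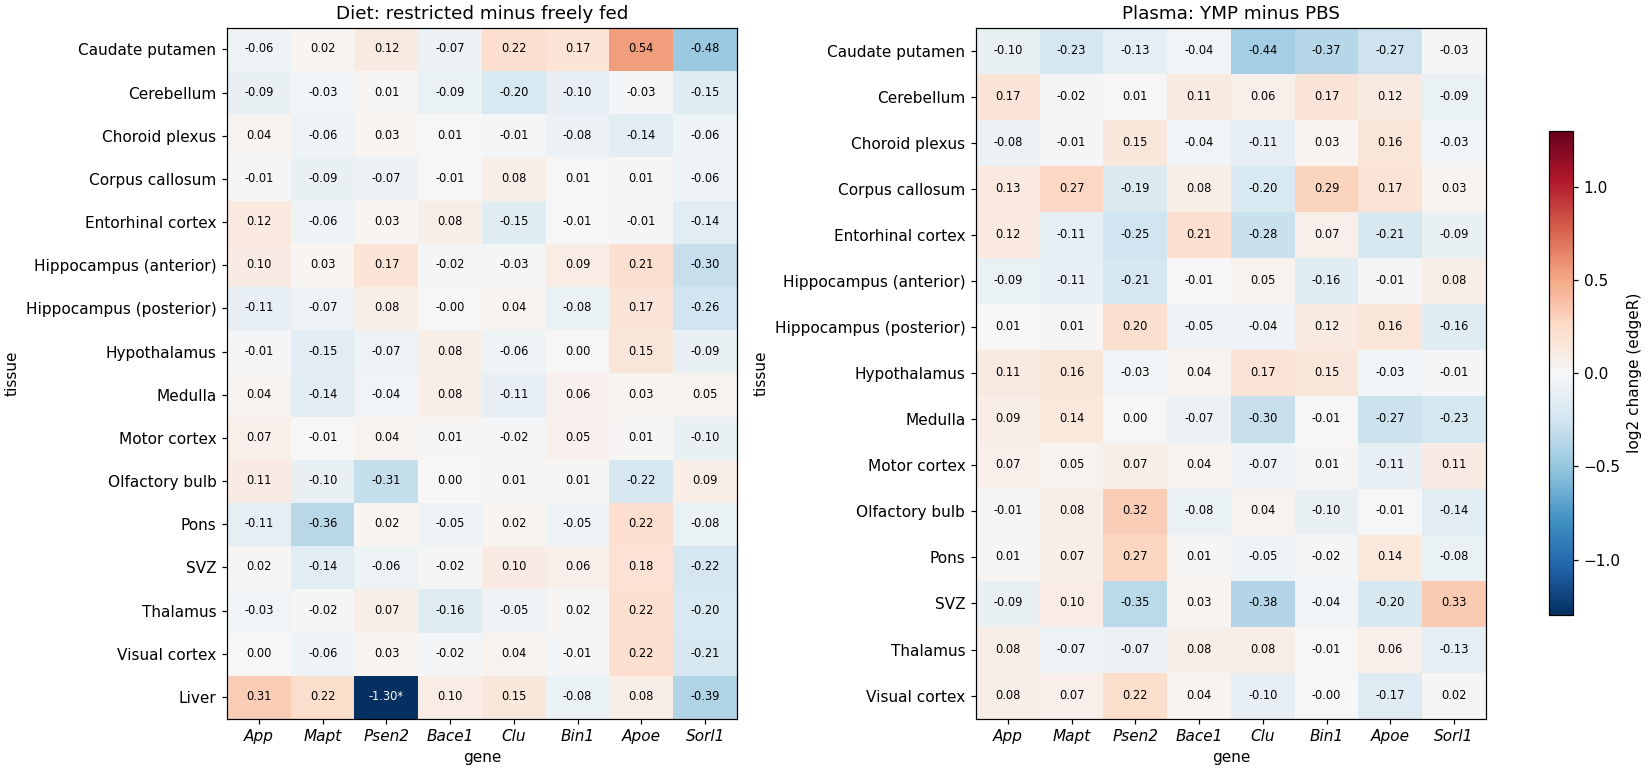
Log2 change of each gene in each tissue, restricted minus freely fed mice (left) and YMP minus PBS mice (right), by edgeR; red is higher and blue lower in treated mice, and an asterisk marks an adjusted p under 0.05. The asterisk stands at Psen2 in liver (-1.30), and the Sorl1 column of the diet panel is below 0 in 13 of 15 brain regions.

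The Sorl1 estimate under restriction was below 0 in 13 of 15 brain regions, as was that of Mapt, and its median was -0.14. In 4 of the 15 regions Sorl1 had an unadjusted p under 0.05, beside 6.24% of all gene tests for diet in brain regions. These regions share the same mice. In caudate putamen Sorl1 measured 117, 122, 146 and 164 CPM in AL and 92.2, 94.4, 97.8, 101 and 102 CPM in aDR mice. All restricted mice lay below all freely fed mice there, and the groups did not overlap for 4.45% of all genes, with a log2 change of -0.48 (SE 0.11) that was not called by edgeR (adjusted p 0.618). DESeq2 gave it an adjusted p of 0.0492. In visual cortex it measured 193, 196, 197 and 206 CPM in AL and 156, 166, 170, 176 and 193 CPM in aDR mice, which is -0.21 on the log2 scale (SE 0.061, edgeR adjusted p 0.242). In anterior hippocampus it measured 201, 209, 211 and 227 CPM in AL and 130, 150, 188, 196 and 198 CPM in aDR mice (log2 -0.30, SE 0.12, edgeR adjusted p above 0.99). In both regions the groups did not overlap, narrowly so, as for 3.21% of all genes in visual cortex and 1.94% in anterior hippocampus. In the other 12 brain regions the groups overlapped for Sorl1.

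With 1 value per mouse over the 15 regions, the diet difference of Sorl1 was -0.16 (SE 0.045, limma adjusted p 0.140). The AL mice stood at 0.14, 0.12, 0.074 and 0.0071, and the aDR mice at -0.13, -0.068, -0.0099, 0.011 and -0.15, on a log2 scale around the mean of the experiment. The groups overlapped through AL mouse 69 and aDR mouse 65. This comparison called 144 of 15616 genes, or 0.922%, 82 of them higher in restricted mice. With plain library totals it called 150, of which 65 were higher. Without the pons library of aDR mouse 67 it called 182, of which 98 were higher, and Sorl1 stood at -0.16 (limma adjusted p 0.131). When the libraries were fitted with limma-voom with the mouse as a replicate block, the Sorl1 difference was -0.16 with an adjusted p of 0.0060 (0.0046 without that library), and 1475 genes were called (1704 without it). That fit treats the regions of 1 mouse as equally correlated for all genes.

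The Mapt differences were smaller in size. Its mouse values were 0.072, 0.052, 0.052 and 0.021 in AL and 0.0087, -0.012, -0.012, -0.051 and -0.13 in aDR mice. The groups did not overlap, as was so for 8.3% of all genes in this comparison. The difference was -0.089 (SE 0.034, limma adjusted p 0.238). Its lowest regional estimate was in pons, at -0.36 (SE 0.25), and this became -0.17 (SE 0.082) without the library of aDR mouse 67. Without that library the difference over regions was -0.069 (limma adjusted p 0.191), and the value of mouse 67 rose from -0.13 to -0.046. The groups then still did not overlap, as for 8.85% of all genes. With the mouse as a replicate block, limma-voom gave Mapt an adjusted p of 0.0715 with the library and 0.0137 without it, so that call turned on 1 library. Apoe was higher by its estimate in 11 of 15 regions and lower in 4, with the largest value in caudate putamen (log2 0.54, not called). There it ranged from 2645 to 4422 CPM in the 4 AL mice and from 3550 to 8344 CPM in the 5 aDR mice. Its unadjusted p was under 0.05 in 2 of the 15 regions, beside 6.24% of all gene tests for diet in brain regions. Those 2 went opposite ways. Apoe was at -0.22 in olfactory bulb (SE 0.080, edgeR adjusted p 0.277) and at 0.22 in visual cortex (SE 0.089, edgeR adjusted p 0.433). Over regions the Apoe difference was 0.092 (SE 0.048, limma adjusted p 0.391), and the groups overlapped through aDR mouse 67. Without the pons library of that mouse the Apoe groups did not overlap, as for 8.85% of all genes. The lowest aDR mouse then stood at -0.015 and the highest AL mouse at -0.038. In that setting aDR mouse 64 stood at 0.19, and the next highest aDR mouse at 0.026. With all libraries, App, Psen2, Bace1, Clu and Bin1 differed by -0.00063, 0.0035, -0.017, -0.013 and -0.00065, each within 1 SE of 0. Without the pons library of aDR mouse 67, App stood at 0.010 and Bin1 at 0.013, neither called.

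**Figure D4:**
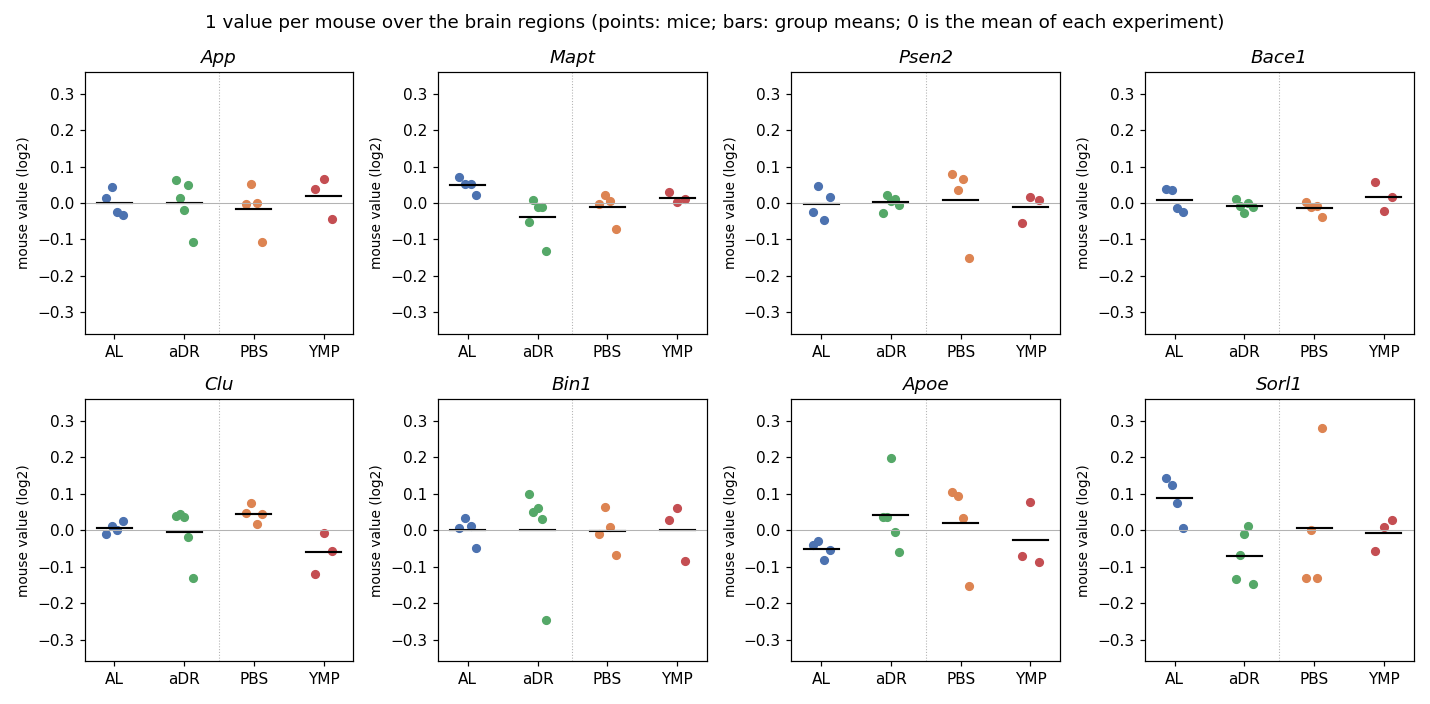
Value of each mouse over the 15 brain regions for each gene (log2, around the mean of its experiment), by group; points are mice and bars group means. The aDR and AL points do not overlap for Mapt, nor the YMP and PBS points for Clu, while Sorl1 overlaps through a single pair of diet mice.

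Under young plasma, Clu was the member furthest from 0 over the regions. Its mouse values were 0.047, 0.075, 0.018 and 0.043 in PBS and -0.12, -0.0064 and -0.058 in YMP mice. The groups did not overlap, as for 10.1% of all genes in this comparison. The difference was -0.11 (SE 0.043, limma adjusted p 0.582). By limma 0 of 15768 genes, or 0%, were called, and 1275 had an unadjusted p under 0.05. With the mouse as a replicate block limma-voom called 468 genes and gave Clu an adjusted p of 0.266. Clu was below 0 in 10 of 15 regions and had an unadjusted p under 0.05 in 4 of the 15, beside 6.11% of all gene tests for plasma in brain regions. In caudate putamen it measured 1231, 1244, 1304 and 1802 CPM in PBS and 1035, 1035 and 1064 CPM in YMP mice (log2 -0.44, SE 0.15, edgeR adjusted p 0.474). In SVZ it measured 1686, 1859, 1900 and 2276 CPM in PBS and 1428, 1484 and 1639 CPM in YMP mice (log2 -0.38, SE 0.15, edgeR adjusted p 0.314). The Clu groups did not overlap in 5 of 15 regions. YMP mice lay below PBS mice in caudate putamen, SVZ, entorhinal cortex and motor cortex, and above them in hypothalamus. There Clu measured 841, 1074 and 1083 CPM in PBS and 1102, 1142 and 1160 CPM in YMP mice (log2 0.17, SE 0.11, edgeR adjusted p above 0.99). Over all genes the groups did not overlap for 12.3% in caudate putamen, 14.6% in SVZ, 6.5% in entorhinal cortex, 4.97% in motor cortex and 9.44% in hypothalamus.

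The other members were nearer to 0 under plasma. Their differences over regions were 0.035 (SE 0.053) for App, 0.026 (SE 0.041) for Mapt, -0.017 (SE 0.065) for Psen2, 0.031 (SE 0.039) for Bace1, 0.0031 (SE 0.054) for Bin1, -0.047 (SE 0.077) for Apoe and -0.012 (SE 0.10) for Sorl1. For Sorl1, PBS mouse 84 stood at 0.28 and the other PBS mice at -0.13, 0.00077 and -0.13. Without mouse 84 the difference was 0.075 (limma adjusted p 0.585).

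No member's treatment effect was shown to differ between brain regions. An F test in edgeR, on the interaction of region and treatment, called 2 genes for diet, or 0.0128%, with or without the pons library of aDR mouse 67, and 130 for plasma, or 0.824%. Adjusted p was above 0.99 for all 8 members under diet. Under plasma it was lowest for Mapt (0.266), whose estimates ran from -0.23 in caudate putamen to 0.27 in corpus callosum.

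Genes of the same pathways were followed in 6 lists. Across brain regions 0 genes of any list were called by limma, for diet or plasma, and edgeR called 0 for diet in liver. Of the 17 genes of amyloid precursor processing, 3 had an unadjusted p under 0.05 for diet across regions, of 14 for lipoprotein transport 4, of 14 for receptor sorting and retromer 2, of 14 for endocytosis 3, of 21 for microtubule proteins and tau kinases 2, and of 7 for amyloid degradation 2. For plasma these counts were 2, 0, 0, 2, 0 and 0. Over all genes 16.1% had an unadjusted p under 0.05 for diet and 8.09% for plasma, beside 16 of the 87 list genes for diet. Without the pons library of aDR mouse 67 the diet counts, in the same order, were 2, 4, 1, 2, 1 and 2, and 17.2% over all genes. The median log2 changes of the lists lay between -0.043 (lipoprotein transport) and 0.000035 (precursor processing) for diet, beside -0.0062 for all genes. For plasma they lay between -0.076 (lipoprotein transport) and 0.035 (amyloid degradation), beside -0.0037 for all genes. In liver the largest median was 0.14, for microtubule proteins and tau kinases, beside 0.018 for all genes.

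The pathway genes with the smallest p across regions were these. Under diet, Ece2, an endothelin-converting enzyme that can degrade amyloid beta, differed by -0.16 (SE 0.036, limma adjusted p 0.0823), and Mme, encoding neprilysin, by -0.21 (SE 0.064, 0.167). Snx27, a sorting nexin that works with retromer, differed by -0.11 (SE 0.029, 0.130) and Gga3, a sorting adaptor, by -0.081 (SE 0.035, 0.295). Nr1h3, the liver X receptor alpha, differed by -0.23 (SE 0.065, 0.140) and Scarb1, a lipoprotein receptor, by -0.13 (SE 0.039, 0.142). Aph1a, a gamma-secretase subunit, differed by 0.15 (SE 0.049, 0.176) and Adam17, an alpha-secretase, by -0.074 (SE 0.026, 0.216). Ap2b1, a clathrin adaptor subunit, differed by -0.11 (0.258), Sh3gl1, an endophilin, by 0.065 (0.306), Ttbk1, a tau kinase, by -0.12 (0.284) and Map2, a microtubule protein, by -0.066 (0.306). The last number in each bracket is the limma adjusted p, and none was called. With the mouse as a replicate block, limma-voom called 5 of them: Snx27 (adjusted p 0.0011), Scarb1 (0.0036), Ap2b1 (0.0196), Ece2 (0.0259) and Nr1h3 (0.0411). That fit called 1475 of 15616 genes. The genes named here were picked by their p in the same data, so these calls are no separate evidence. Without the pons library of aDR mouse 67, limma again called 0 of the list genes (lowest adjusted p 0.0747, for Nr1h3). There limma-voom with the block again called the same 5, among 1704 of 15599 genes.

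Under plasma the smallest p values in the lists were those of the gamma-secretase subunits Aph1c, with a difference of -0.19 (SE 0.044, limma adjusted p 0.372), and Aph1a, at -0.32 (SE 0.11, 0.537). Next were Sh3gl3, an endophilin, at 0.12 (0.550) and Cd2ap, an adaptor of endocytosis, at -0.16 (0.553). Vldlr, a lipoprotein receptor that binds Apoe protein, was at -0.13 (0.644) and Apod, a lipocalin, at -0.27 (0.690). Thop1 and Ctsd, peptidases of the degradation list, were at 0.096 (0.629) and -0.16 (0.733), and Map6, a microtubule stabiliser, and Fyn, a tyrosine kinase, at 0.094 (0.646) and 0.11 (0.657). Vps26b, of retromer, was at 0.073 (0.708) and Gga1, a sorting adaptor, at -0.045 (0.802). With the mouse as a replicate block, Aph1a (adjusted p 0.0194) and Cd2ap (0.0473) were called by limma-voom. That fit called 468 of 15768 genes, and these genes too had been picked by their p in the same data. Of the 87 list genes, Aph1c was the 1 whose plasma effect was called as differing between regions (F = 3.54, edgeR adjusted p 0.0300). The same test called 0.824% of all genes, so 1 call in the lists is near what all genes gave. Its estimates ran from -1.33 (SE 0.36) in corpus callosum, where 2 mice stood against 3, and -0.81 (SE 0.24) in SVZ to 0.28 (SE 0.21) in visual cortex, and none was called in its region. Without corpus callosum the adjusted p was 0.515, and without YMP mouse 77 or 81 it was 0.412 and 0.767. Aph1c has a near-identical copy, Aph1b, so its counts are uncertain.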

How the data were processed

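RNA was isolated with RNeasy from homogenised tissue, and unstranded Smart-Seq2 libraries were made with Nextera XT, per the labels' protocols. The deposited values are whole-number counts per gene, made by the authors. Trim Galore 0.3.7, STAR 2.5.3a, DESeq2 and the build GRCm38 are named in the submitters' processing notes. The counting program and annotation are not given in the sources used here. Of 21076 rows, 537 had no count, and 0 columns were left unused. PCR reads without molecular identifiers are not independent molecules.

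Tests within a tissue used edgeR 4.0.16 quasi-likelihood fits (R 4.3.3) with TMM factors and filterByExpr (minimum count 10, minimum total count 15). Changes across regions used limma 3.58.1 on 1 log2 value per mouse (prior count 2): the mouse term of a fit on region and mouse. Levels between regions, pairs of regions, liver against brain and the interaction of region and treatment used edgeR fits without a mouse term. Those fits took the libraries of 1 mouse as independent. A mouse term was an alternative for each of them except the pairs. P-values were Benjamini-Hochberg adjusted over all genes tested, with a call at 0.05. Alternatives were DESeq2 1.42.0, no TMM, no filter, a prior count of 0.5, limma-voom with and without a mouse block, leaving out libraries under 2 M, choroid plexus or corpus callosum, and each mouse in turn, and, added after seeing the data, the pons library of aDR mouse 67. Mouse numbers differ between treatments and pair libraries only across regions of 1 animal. Deviations from the group means correlated at 0.040 within and -0.0049 between mice for diet, and at 0.072 and -0.012 for plasma. In 357 replicate pairs the chi-square per degree of freedom was at least 1.29, so each library was kept as its own replicate. Fits were tested on simulated counts drawn without a mouse effect. That test cannot show how they behave when the regions of 1 animal are correlated. Genes named besides the 8 were those of the pathway lists called across regions, in liver or between regions, the 2 per list and experiment with the smallest p across regions, and the 3 most like each member. The 8 genes and the lists were chosen with earlier results of these data known.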

Additional observations from a re-analysis of the deposited data

Results flagged for a closer look

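The liver effect of diet on Psen2 differed from its brain effect by -1.31 on the log2 scale. The loss of that call when most single mice were left out is given above. The plasma effect on Aph1c was called as differing between regions (F = 3.54), as was so for 0.824% of all genes. The loss of that call without corpus callosum is given above.

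Of 66 groups of 4 or 5 mice examined for a value far from the rest, 4 had one, where chance would flag about 3.3. The Bin1 value of aDR mouse 67 over the brain regions was -0.25, while the other aDR mice lay between 0.030 and 0.10. Without the pons library of that mouse its value was -0.19, and the others lay between 0.023 and 0.093, so it still stood apart. Without that library the Apoe value of aDR mouse 64 also stood apart, at 0.19. Sorl1 in cerebellum of AL mice had a low value of 384 CPM in 1 mouse. App in liver of AL mice had a high value of 129 CPM, and Clu in caudate putamen of PBS mice a high value of 1802 CPM.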

How the results depend on the processing

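The count of member calls within tissues under diet was 1 and became 2 with DESeq2, which added Sorl1 in caudate putamen, and 0 to 1 when a mouse was left out. Across regions under diet the count of 0 became 1 with the mouse as a replicate block (Sorl1) and 2 with no replicate block (Sorl1 and Mapt). Over all 15616 genes those fits called 1475 and 2760. With the block and without the pons library of aDR mouse 67, left out after seeing the data, the member count was 2 (Sorl1 and Mapt). That fit called 1704 of 15599 genes. Under plasma the member count became 1 with no replicate block (Clu), where 2629 of 15768 genes were called. Fits with no replicate block take the libraries of 1 mouse as independent. The count for liver minus brain was 1 and ran from 0 to 1 when a mouse was left out. The most alike genes kept 4 of 24 with Spearman's rho and 15 without choroid plexus.

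Signs turned for values near 0. Without TMM factors the diet value of Psen2 across regions was -0.012 and the plasma value of Bin1 was -0.0022. With no filter on low counts the diet values were 0.00012 for App and 0.00010 for Bin1. Without choroid plexus and corpus callosum Bin1 was at 0.0040 for diet and -0.017 for plasma, and without libraries under 2 M at 0.0079 for diet. Without the pons library of aDR mouse 67 the diet value was 0.010 for App and 0.013 for Bin1, and with the block as well 0.010 and 0.017. With each mouse left out in turn, the diet values across regions ran from -0.018 to 0.027 for App, -0.011 to 0.021 for Psen2, -0.028 to 0.020 for Clu and -0.028 to 0.062 for Bin1. The plasma values ran from -0.00026 to 0.064 for App, -0.075 to 0.010 for Psen2, -0.028 to 0.045 for Bin1 and -0.060 to 0.075 for Sorl1. In liver the diet values ran from -0.029 to 0.43 for Mapt, -0.034 to 0.28 for Clu and -0.19 to 0.0017 for Bin1. None of these was called, and the cause was not tested. Psen2 had a median of 153 counts in brain libraries and 6 in the lowest, and its SE across regions was 0.028 for diet.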
